A study of Mus musculus with 13 samples.

Results

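DNA repair genes named Xrcc, Rad50 to Rad54, Fanc, Ercc, Brca, Msh, Mlh, Lig or Parp were followed in the mouse submandibular gland. They were chosen by symbol alone: every row of the deposited normalised table whose symbol begins with one of these names was taken. The Brca, Msh, Mlh, Lig and Parp names were limited to set numbers, and Ercc6l was left out. This gave 47 genes of 17957 entries in that table. By name they comprised 10 Fanc, 10 Rad5x (Rad50 to Rad54), 8 Ercc, 6 Xrcc, 4 Msh, 3 Lig, 2 Brca, 2 Mlh and 2 Parp genes. All 47 are annotated as protein coding.

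The submandibular gland is a major salivary gland that is often damaged when tumours of the head and neck are irradiated. RNA of whole glands from mice 1 year of age, strain label CH3, was sequenced in 13 libraries, all collected on day 300 after treatment. PreIR-NTN (5 libraries) were irradiated glands that had received Cere-120, an adeno-associated virus vector carrying neurturin (AAV2-NRTN), 10 days before irradiation. PreIR-GFP (5 libraries) were irradiated glands that had received AAV2-GFP, the vector with green fluorescent protein, on the same schedule. NonIR (3 libraries) were glands that were not irradiated. Neurturin is a growth factor for parasympathetic neurons. The sources used here give neither the radiation dose nor the promoter of the vectors, and do not say whether NonIR glands received any vector, so irradiation and vector cannot be told apart in a comparison with NonIR. The labels do not tie libraries to separate animals, and p-values therefore measure the spread between these libraries.

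Libraries held 9724301 to 16771003 reads assigned to genes, of which the 47 members took 0.0421% to 0.071%. Acinar and duct marker genes were high in all 13 libraries, with acinar markers summing to 49990 to 64336 CPM in PreIR-NTN, 35443 to 89833 CPM in PreIR-GFP and 54186 to 58885 CPM in NonIR. CPM scale the reads of each gene to a common library size, here after TMM scaling, a correction for differences in library composition. Some libraries stood apart. PreIR-GFP 1 had the lowest depth, the lowest sums of acinar (35443 CPM) and duct markers (12280 CPM) and the highest sum of B and plasma cell markers (1222 CPM, against 23.3 to 627 CPM in the other libraries). PreIR-GFP 2 had 180 CPM of skeletal muscle and fat markers, against 2.06 to 11.2 CPM elsewhere. In these bulk samples fewer cells of a type and less RNA per cell cannot be told apart.

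As background, cells repair damaged DNA by several pathways. In end joining, the Ku proteins of Xrcc5 and Xrcc6 bind the ends of a broken helix and Xrcc4 with Lig4 seals them. Homologous recombination, in which Brca1 and Brca2 act, copies the lost stretch from a sister helix and works mainly in dividing cells. Parp1, Parp2, Xrcc1 and Lig3 handle nicks in a single strand, and the Fanconi anaemia proteins handle crosslinks. The Ercc proteins excise bulky lesions, and most of the Msh and Mlh proteins correct copying errors. Most cells of an adult salivary gland divide rarely.

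No member passed the test in any comparison. The edgeR quasi-likelihood test with Benjamini-Hochberg adjustment over 14727 genes tested 44 of the 47 members and called 0 at an adjusted p under 0.05 in PreIR-NTN against PreIR-GFP, in PreIR-GFP against NonIR and in PreIR-NTN against NonIR. Few genes of any kind passed: 0.0204%, 0.034% and 0.0204% of all genes in these 3 comparisons. At an unadjusted p under 0.05 stood 2 members (4.55%) in PreIR-NTN against PreIR-GFP, where 6.08% of all genes did. In PreIR-GFP against NonIR they were 4 (9.09%), with 8.78% of all genes, and in PreIR-NTN against NonIR 3 (6.82%), with 7.97% of all genes. The members' shares were thus near those of all genes. Leaving out single libraries gave 0 to 3 members in PreIR-NTN against PreIR-GFP, with 0 without PreIR-NTN 4 and 1 without PreIR-NTN 1, PreIR-GFP 2 or PreIR-GFP 5. In PreIR-NTN against NonIR, leaving out NonIR 1 gave 2 members and 759 genes, against 1174 genes with it. The DESeq2 test called 0 members as well, with 2, 4 and 3 at an unadjusted p under 0.05.

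Most members' intervals excluded a 2-fold change but left room for smaller ones, a count not made over all genes. In PreIR-NTN against PreIR-GFP, 38 of the 44 tested members had a 95% interval wholly within a 2-fold change in either direction, and in each comparison with NonIR 36 of 44 did. The median log2 fold change of the 44 was 0.01 in PreIR-NTN against PreIR-GFP, with -0.01 over all genes. It was 0.12 in PreIR-GFP against NonIR, with 0.02 over all genes, and 0.02 in PreIR-NTN against NonIR, with 0.00 over all genes. Positive values stood at 22, 29 and 25 of 44 members, where 47.3%, 52.7% and 50.5% of all genes were positive. The comparisons share libraries, so their values are given side by side and not as repeats of each other. A p that misses the threshold does not show that the groups were alike.

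**Figure D1:**
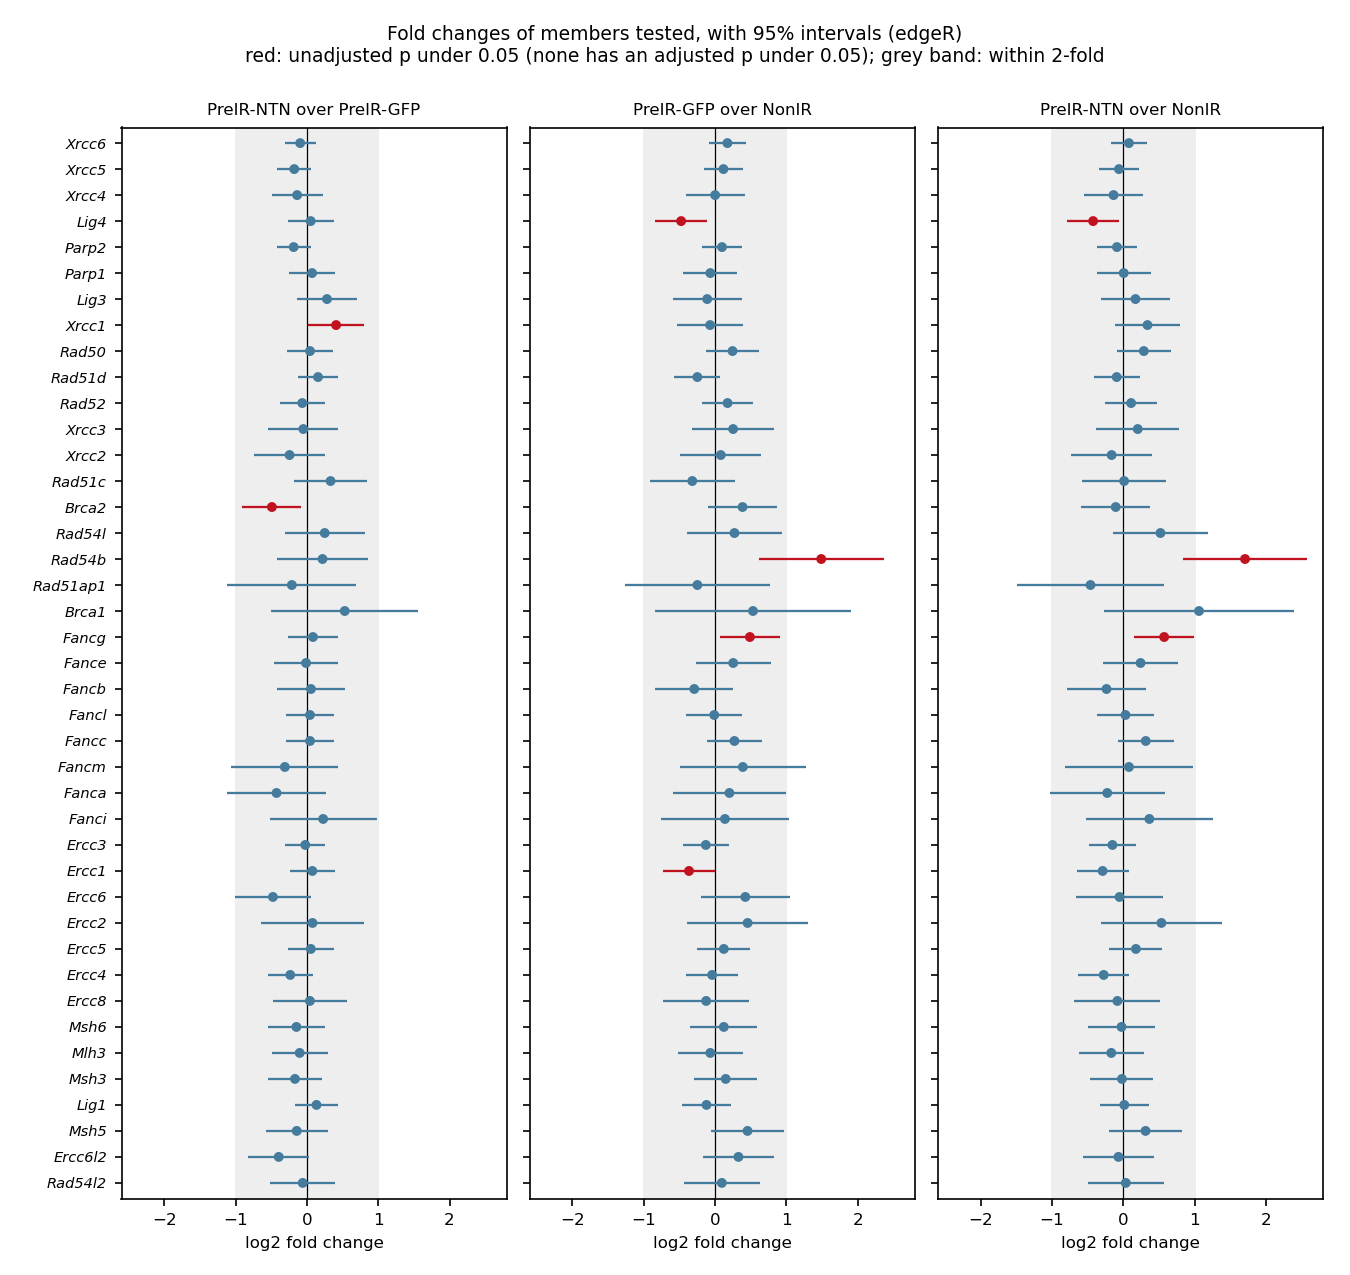
Log2 fold change (x axis) of 41 of the 44 tested members (rows, ordered by pathway) in 3 comparisons, with 95% intervals from the edgeR fit; the grey band marks changes within 2-fold and red marks an unadjusted p under 0.05. Of those plotted, intervals lie within the band for 36 members in PreIR-NTN over PreIR-GFP and for 34 in each comparison with NonIR, and Rad54b lies farthest to the right in both of these.

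Members differed far more in level than in response. Levels of different genes are compared as CPM per kb of annotated exon, averaged over the 13 libraries. Parp2, which senses nicks together with Parp1, was first at 25, followed by Xrcc6 at 15.8 and Parp1 at 5.66. Ercc3 (a helicase of the TFIIH complex, 4.26), Fancg (a subunit of the Fanconi core complex, 3.86), Rad50 (of the Mre11 end-processing complex, 3.81), Rad51d (a recombination factor, 3.74), Xrcc5 (3.74) and Ercc1 (3.67) formed the next step. At the low end were Rad51b, another recombination factor, at 0.06, and Fancd2, the protein that the Fanconi core complex marks with ubiquitin, at 0.05. Brca1 was last at 0.05. In per-length level Parp2, Xrcc6 and Parp1 stood above all other members. Xrcc5 and Rad50, whose proteins also act at broken ends, lay in the next step among genes of other pathways.

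**Figure D2:**
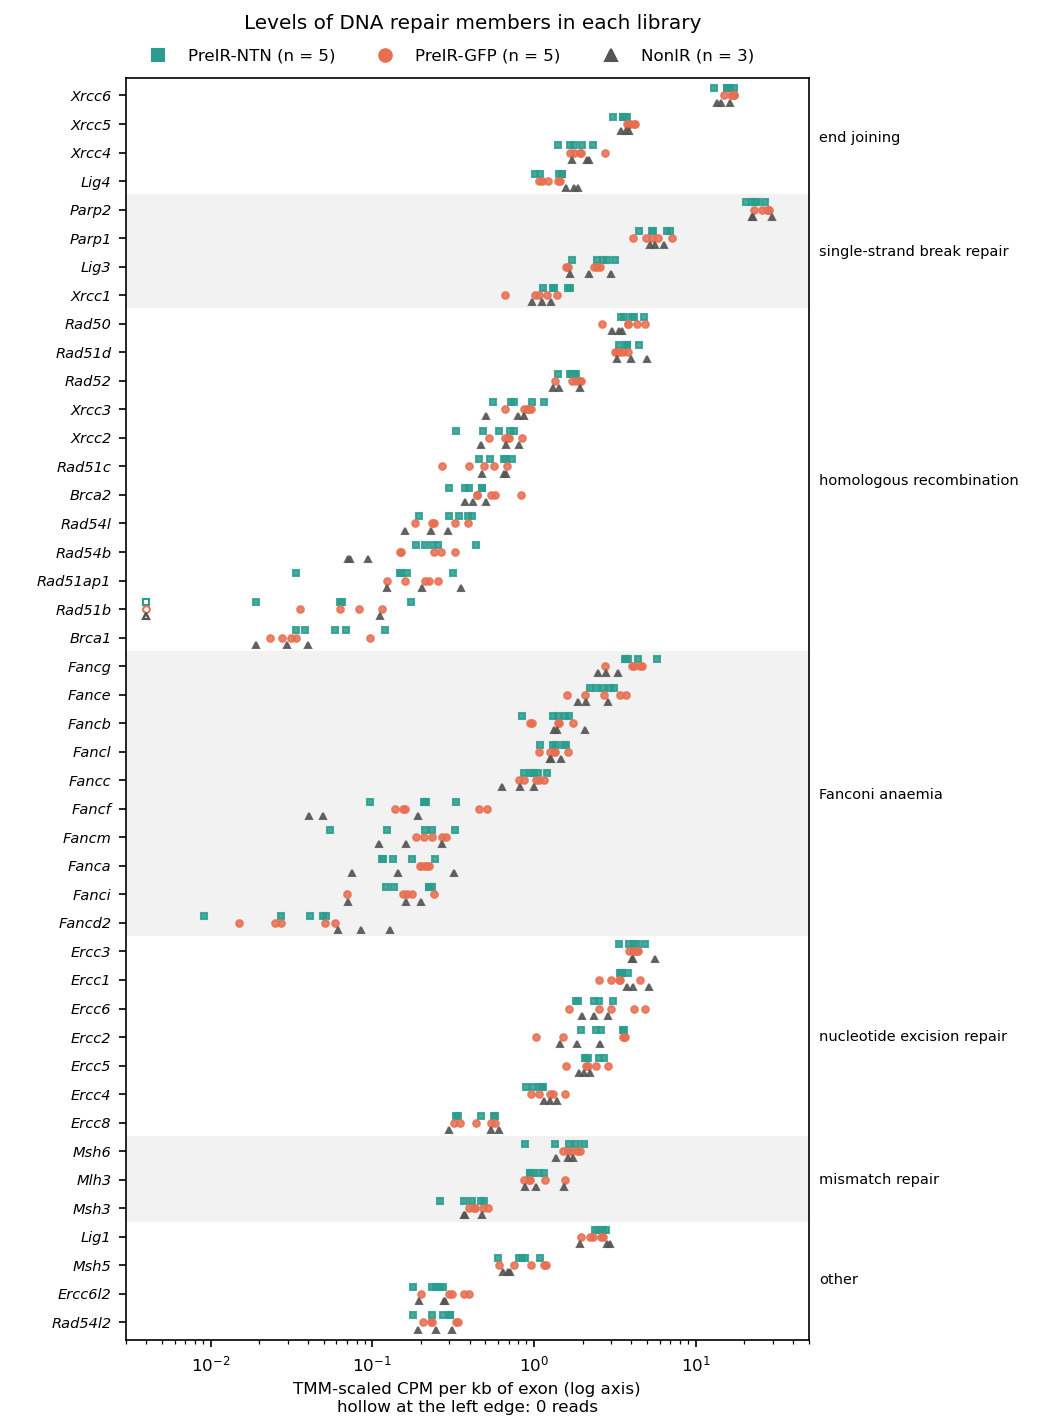
Level of 44 of the 47 members (rows, grouped by pathway) in each library as TMM-scaled CPM per kb of exon on a log axis, with squares for PreIR-NTN, circles for PreIR-GFP and triangles for NonIR. The 3 groups overlap for nearly all members, and levels run from 25 for Parp2 down to 0.05 for Brca1.

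In end joining, levels of the Ku genes varied little between libraries and Lig4 was the member set apart from NonIR. Xrcc6 had 58.4, 77.7, 70.0, 69.6 and 73.4 CPM in PreIR-NTN 1 to 5, 67.4, 74.6, 76.9, 76.5 and 77.1 in PreIR-GFP 1 to 5, and 73.5, 60.4 and 64.4 in NonIR 1 to 3, with overlapping groups. Its partner Xrcc5 was the least variable of the 47, with an SD of 0.09 on the log2 scale within groups, and stood at 9.01 ± 0.65 CPM in PreIR-NTN (SD, n = 5), 10.2 ± 0.516 CPM in PreIR-GFP (SD, n = 5) and 9.4 ± 0.502 CPM in NonIR (SD, n = 3). All 5 PreIR-NTN libraries lay below all 5 PreIR-GFP libraries for Xrcc5, at a log2 fold change of -0.18 (standard error, SE, 0.11, edgeR adjusted p = 0.892). It was the single member whose groups did not overlap in that comparison (2.27%), where 1.11% of all genes did not (0.394% higher and 0.72% lower in PreIR-NTN).

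Lig4, the ligase that closes broken ends, had 7.74, 7.74, 5.3, 7.4 and 5.71 CPM in PreIR-NTN 1 to 5, 7.54, 5.87, 5.63, 6.34 and 7.31 in PreIR-GFP 1 to 5, and 9.24, 8.27 and 9.81 in NonIR 1 to 3. All 10 irradiated libraries lay below all 3 NonIR libraries, which held for 1 of 44 members and for 0.903% of all genes. The log2 fold change was -0.48 (SE 0.17, edgeR adjusted p = 0.457) in PreIR-GFP against NonIR and -0.42 (SE 0.17, edgeR adjusted p = 0.574) in PreIR-NTN against NonIR. Both missed the threshold. Without PreIR-GFP 1 and 2 the first value was -0.52. Xrcc4, which binds Lig4, stood at 7.7 ± 1.42 CPM in PreIR-NTN (SD, n = 5), 8.49 ± 1.77 CPM in PreIR-GFP (SD, n = 5) and 8.48 ± 1.05 CPM in NonIR (SD, n = 3), without such a separation.

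Among the genes for nicks in a single strand, Xrcc1 was the member with a low p. Parp2 had 74.6, 81.2, 84.4, 96.9 and 87.6 CPM in PreIR-NTN 1 to 5, 101, 103, 93.8, 102 and 83.7 in PreIR-GFP 1 to 5, and 108, 82.7 and 80.8 in NonIR 1 to 3. Parp1, the main sensor of nicks, stood at 30.5 ± 5.36 CPM in PreIR-NTN (SD, n = 5), 29 ± 5.97 CPM in PreIR-GFP (SD, n = 5) and 30.4 ± 3.15 CPM in NonIR (SD, n = 3), and the groups overlapped for both genes. Xrcc1, the scaffold that gathers the repair enzymes, had 9.82, 7.68, 6.68, 7.76 and 9.52 CPM in PreIR-NTN 1 to 5, 3.84, 5.94, 8.05, 7.08 and 6.3 in PreIR-GFP 1 to 5, and 6.57, 5.65 and 7.44 in NonIR 1 to 3. Its log2 fold change in PreIR-NTN against PreIR-GFP was 0.41 (SE 0.19, edgeR adjusted p = 0.806). The groups overlapped, and PreIR-GFP 1 was lowest of all. The value was 0.25 without PreIR-GFP 1 and 2, and 0.71 (edgeR adjusted p = 0.366) with a cell cycle score as covariate. Lig3, the ligase that Xrcc1 carries, stood at 18.7 ± 3.91 CPM in PreIR-NTN (SD, n = 5), 15.4 ± 3.43 CPM in PreIR-GFP (SD, n = 5) and 16.7 ± 4.81 CPM in NonIR (SD, n = 3); 25.1% of its exon bases are shared with Rffl on the opposite strand. The library kit does not mark strand, so reads from such shared bases cannot be assigned.

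In homologous recombination, Rad54b was the member farthest from NonIR. On GRCm38, Rad54b lies at chr4:11558922-11615805 on the plus strand, Lig4 at chr8:9969049-9977686 and Fancg at chr4:43002343-43010506, both on the minus strand. Rad54b, a motor protein that helps strands to pair, had 15, 25, 15, 19 and 32 reads in PreIR-NTN 1 to 5, 26, 21, 11, 13 and 26 in PreIR-GFP 1 to 5, and 8, 5 and 5 in NonIR 1 to 3. In CPM this was 1.08, 1.47, 1.22, 1.38 and 2.54 CPM in PreIR-NTN 1 to 5, 1.89, 1.39, 0.86, 0.877 and 1.55 in PreIR-GFP 1 to 5, and 0.547, 0.422 and 0.409 in NonIR 1 to 3. All 10 irradiated libraries lay above all 3 NonIR libraries, which held for 1 of 44 members and for 0.964% of all genes. Rad54b passed the filter for low counts through its irradiated libraries alone, since its NonIR reads of 8, 5 and 5 were all below it. Fancd2, low in the irradiated libraries instead, did not pass it. The log2 fold change of Rad54b was 1.49 (SE 0.41, edgeR adjusted p = 0.292) in PreIR-GFP against NonIR and 1.71 (SE 0.41, edgeR adjusted p = 0.309) in PreIR-NTN against NonIR. With limma on the log2 of the deposited values + 0.5, a scale that understates the change of low genes, these values were 0.88 and 1.05. The lowest NonIR libraries held 5 reads, and 35.8% of its exon bases are shared with Fsbp on the same strand, a gene with 0 to 4 reads in these libraries. Over the alternatives the adjusted p ranged from 0.165 to 0.661 in PreIR-GFP against NonIR and, where one was given, from 0.205 to 0.794 in PreIR-NTN against NonIR, for which DESeq2 gave none. Rad54l, its relative, stood at 2.53 ± 0.668 CPM in PreIR-NTN (SD, n = 5), 2.12 ± 0.64 CPM in PreIR-GFP (SD, n = 5) and 1.76 ± 0.527 CPM in NonIR (SD, n = 3), and the groups overlapped.

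Brca2, a mediator of strand exchange, had 5.09, 6.51, 6.52, 4.06 and 5.39 CPM in PreIR-NTN 1 to 5, 7.83, 6.07, 7.43, 6.07 and 11.4 in PreIR-GFP 1 to 5, and 6.91, 5.74 and 5.15 in NonIR 1 to 3. Its log2 fold change in PreIR-NTN against PreIR-GFP was -0.49 (SE 0.19, edgeR adjusted p = 0.743), the lowest adjusted p of a member in that comparison. PreIR-GFP 5 was the highest library, and without it the value was -0.29. Brca1 had 2 to 14 reads in a library, too few to follow singly, and its log2 fold change in PreIR-NTN against NonIR was 1.06 (95% interval -0.26 to 2.39). It also passed the filter for low counts through irradiated libraries alone. Rad50 had 21.7, 25.9, 22.4, 19.3 and 18.7 CPM in PreIR-NTN 1 to 5, 23.2, 20.5, 20.6, 14.2 and 26.3 in PreIR-GFP 1 to 5, and 16.3, 18 and 18.9 in NonIR 1 to 3, with overlapping groups. Of the 12 tested members of this pathway, 7 had positive values in PreIR-NTN against PreIR-GFP, 9 in PreIR-GFP against NonIR and 8 in PreIR-NTN against NonIR, with 1 at an unadjusted p under 0.05 in each. In the same order, 47.3%, 52.7% and 50.5% of all genes were positive, and 6.08%, 8.78% and 7.97% were at that p. Rad54b and Brca1 are among the positive members in both comparisons with NonIR.

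Among the Fanconi anaemia genes, Fancg was the member at an unadjusted p under 0.05 in both comparisons with NonIR, past the threshold in neither. Fancg had 14.1, 14.5, 16.7, 14 and 21.9 CPM in PreIR-NTN 1 to 5, 10.5, 15.7, 15.3, 17.3 and 17.7 in PreIR-GFP 1 to 5, and 10.6, 9.45 and 12.7 in NonIR 1 to 3. All 5 PreIR-NTN libraries lay above all 3 NonIR libraries, while PreIR-GFP 1, the lowest of its group, overlapped with NonIR. The log2 fold change was 0.57 (SE 0.20, edgeR adjusted p = 0.505) in PreIR-NTN against NonIR and 0.49 (SE 0.20, edgeR adjusted p = 0.499) in PreIR-GFP against NonIR. Without PreIR-GFP 1 and 2 the value in PreIR-GFP against NonIR was 0.60 (edgeR adjusted p = 0.403). Fancc, another core subunit, had 10.0, 8.04, 7.25, 8.92 and 8.41 CPM in PreIR-NTN 1 to 5, 7.25, 8.64, 6.72, 9.04 and 9.69 in PreIR-GFP 1 to 5, and 6.91, 8.35 and 5.31 in NonIR 1 to 3, and a log2 fold change in PreIR-NTN against NonIR of 0.31 (SE 0.18, edgeR adjusted p = 0.704). That value was 0.48 without NonIR 2, 0.16 without NonIR 3 and 0.18 with a cell cycle score as covariate. On the opposite strand, 2.21% of the exon bases of Fancc are shared with 2010111I01Rik, which had 1106 to 2004 reads in a library against 65 to 163 for Fancc. A further 16.4% are shared with Gm16133, which had 0 to 1 reads.

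Summed over the 10 Fanc genes, the level was 43.4 to 53.5 CPM in PreIR-NTN, 38.4 to 49.5 CPM in PreIR-GFP and 38.7 to 40.3 CPM in NonIR. PreIR-GFP 1 was the single irradiated library that did not exceed every NonIR library in this sum. Fancg is the largest part of the Fanc sum, so this sum is not separate from the values above. In both comparisons with NonIR, 6 of the 8 tested Fanc genes had positive values, and 1 was at an unadjusted p under 0.05. Of all genes, 52.7% were positive in PreIR-GFP against NonIR, with 8.78% at that p. In PreIR-NTN against NonIR 50.5% were positive, with 7.97% at that p.

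Among the nucleotide excision repair genes, Ercc1 and Ercc4 lay lower in some irradiated groups without passing the test, and Ercc2 and Ercc6 differed widely between PreIR-GFP libraries. Ercc1, which with Ercc4 forms the nuclease that cuts beside a lesion, had 10.7, 10.9, 10.8, 10.9 and 12 CPM in PreIR-NTN 1 to 5, 7.9, 10.6, 10.5, 14 and 9.39 in PreIR-GFP 1 to 5, and 12.7, 11.7 and 16.1 in NonIR 1 to 3. Its log2 fold change in PreIR-GFP against NonIR was -0.37 (SE 0.17, edgeR adjusted p = 0.563), with overlapping groups; without NonIR 3 it was -0.23. Ercc4 had 7.67, 7.57, 7.25, 6.67 and 6.03 CPM in PreIR-NTN 1 to 5, 8.41, 7.19, 10.5, 6.47 and 8.86 in PreIR-GFP 1 to 5, and 8.49, 7.76 and 9.32 in NonIR 1 to 3, with all 5 PreIR-NTN libraries below all 3 NonIR libraries at a log2 fold change of -0.28 (SE 0.17, edgeR adjusted p = 0.733). In all, groups did not overlap for 4 members in PreIR-NTN against NonIR (9.09%): Rad54b and Fancg were higher and Lig4 and Ercc4 lower. Of all genes 6.52% did not overlap there, 3.22% higher and 3.3% lower. They did not overlap for 2 members in PreIR-GFP against NonIR (4.55%), Rad54b higher and Lig4 lower. Of all genes 5.14% did not overlap there, 2.87% higher and 2.27% lower.

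Ercc6, a remodeler that restarts transcription at a lesion, had 30.3, 23.3, 32.5, 24 and 39.4 CPM in PreIR-NTN 1 to 5, 21.2, 38.5, 62.4, 53.5 and 32.4 in PreIR-GFP 1 to 5, and 25.5, 37.1 and 30.5 in NonIR 1 to 3. Ercc2, the other helicase of TFIIH, had 14.8, 8.15, 10.9, 10.1 and 15.1 CPM in PreIR-NTN 1 to 5, 4.28, 15.2, 14.9, 15.1 and 6.36 in PreIR-GFP 1 to 5, and 6.09, 7.68 and 10.7 in NonIR 1 to 3. PreIR-GFP 1 and 5 were the lowest PreIR-GFP libraries for both genes, and PreIR-GFP 2, 3 and 4 the highest. The same 2 libraries had the lowest duct marker sums of PreIR-GFP, 12280 and 16469 CPM against 22180 to 28758 CPM, and its highest TMM factors, 1.42 and 1.24 against 0.77 to 0.99. Their part in these values was not tested. For Ercc6 the log2 fold change in PreIR-NTN against PreIR-GFP was -0.48 (SE 0.25, edgeR adjusted p = 0.852), without PreIR-GFP 3 it was -0.28, and with a cell cycle score as covariate -0.32. Of the exon bases of Ercc2, 42.7% are shared with other genes, mainly Klc3 and Gm26852 on the opposite strand. Ercc3 had 11, 13.9, 9.53, 12.3 and 11.7 CPM in PreIR-NTN 1 to 5, 10.9, 12.5, 12, 12.3 and 11.7 in PreIR-GFP 1 to 5, and 15.9, 11.6 and 11.5 in NonIR 1 to 3, and its groups overlapped.

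Among the mismatch repair genes, Msh3 and Msh6 had small fold changes. Msh6, for small mismatches, had 7.96, 8.92, 3.83, 7.18 and 5.87 CPM in PreIR-NTN 1 to 5, 7.03, 7.39, 8.05, 6.61 and 8.38 in PreIR-GFP 1 to 5, and 7.6, 7.09 and 5.97 in NonIR 1 to 3. Msh3, for larger loops, had 5.31, 5.51, 4.15, 2.97 and 4.68 CPM in PreIR-NTN 1 to 5, 4.86, 4.82, 5.86, 4.45 and 5.47 in PreIR-GFP 1 to 5, and 4.17, 4.22 and 5.39 in NonIR 1 to 3. The groups overlapped for both genes. With Mlh3, their log2 fold changes ran from -0.17 to -0.10 in PreIR-NTN against PreIR-GFP, from -0.07 to 0.15 in PreIR-GFP against NonIR and from -0.17 to -0.02 in PreIR-NTN against NonIR, none of these 3 genes at an unadjusted p under 0.05. Lig1, the ligase that joins fragments at replication forks, had 11.3, 10.6, 11.9, 10.2 and 11.4 CPM in PreIR-NTN 1 to 5, 9.5, 11.5, 9.93, 8.36 and 11.2 in PreIR-GFP 1 to 5, and 8.21, 12.6 and 12.2 in NonIR 1 to 3, with overlapping groups. Ercc6l2, a helicase-like relative of Ercc6, had 2.72, 4.16, 3.99, 3.77 and 3.57 CPM in PreIR-NTN 1 to 5, 4.71, 6.07, 3.05, 4.52 and 5.59 in PreIR-GFP 1 to 5, and 2.94, 4.3 and 4.25 in NonIR 1 to 3. Its log2 fold change in PreIR-NTN against PreIR-GFP was -0.40 (SE 0.20, edgeR adjusted p = 0.843), and -0.24 without PreIR-GFP 1 and 2.

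**Figure D3:**
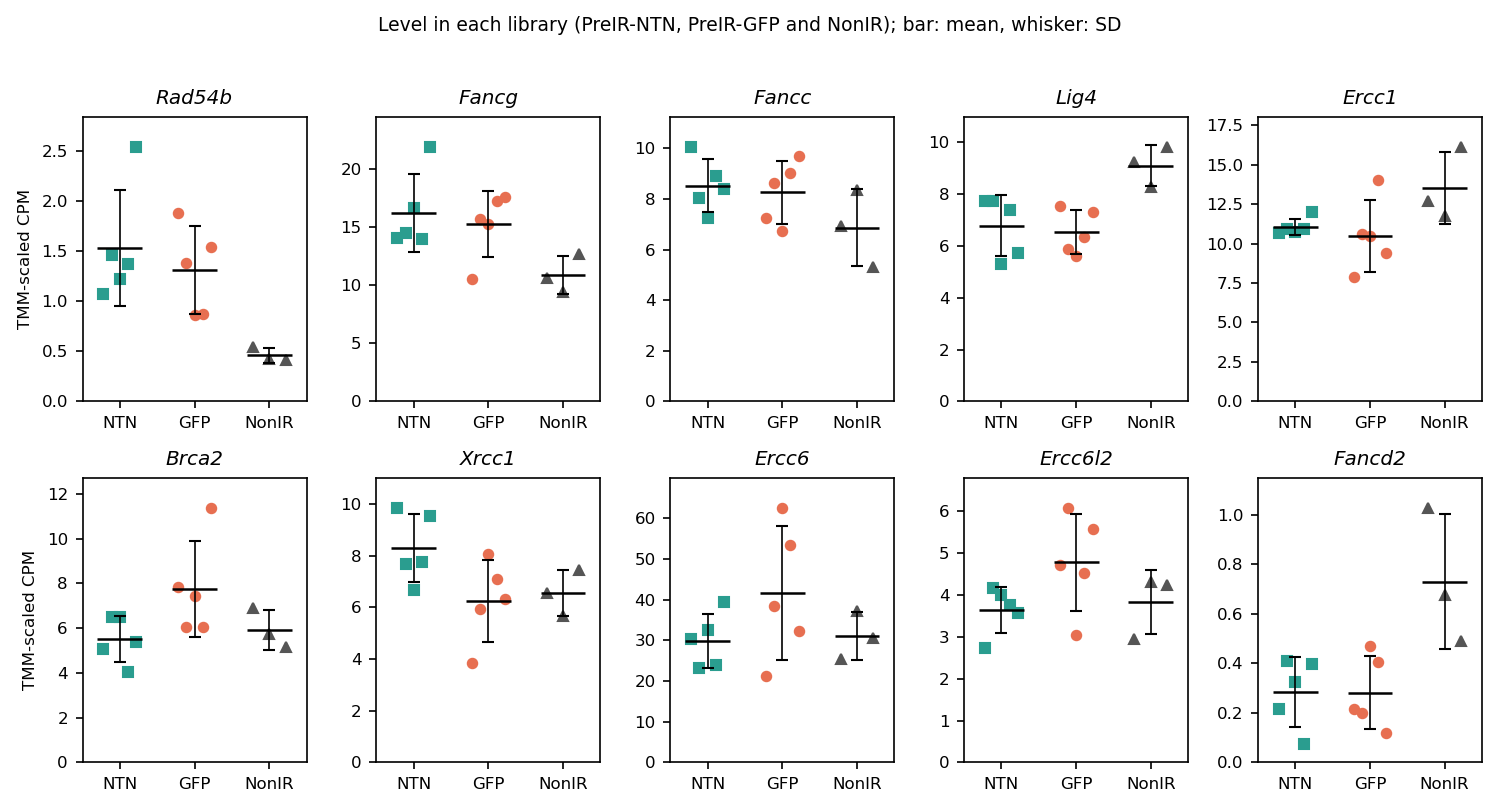
TMM-scaled CPM (y axis, from 0) in each library for the members with the lowest p in a group comparison and for Fancd2, with the mean (bar) and SD (whisker) of PreIR-NTN (n = 5), PreIR-GFP (n = 5) and NonIR (n = 3). For Rad54b, which passed the count filter through irradiated libraries alone, all 10 irradiated libraries lie above NonIR, as for 0.964% of all tested genes. They lie below it for Lig4, as for 0.903% of all tested genes, and for Fancd2, which was below the count filter. The groups of Brca2, Xrcc1, Ercc6 and Ercc6l2 overlap.

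The 3 members below the count filter were Fancd2, Fancf and Rad51b. Fancd2 had 3, 7, 4, 1 and 5 reads in PreIR-NTN 1 to 5, 3, 3, 6, 6 and 2 in PreIR-GFP 1 to 5, and 15, 8 and 6 in NonIR 1 to 3. Those are 0.07 to 0.41 CPM in PreIR-NTN, 0.12 to 0.47 CPM in PreIR-GFP and 0.49 to 1.03 CPM in NonIR, so that all 10 irradiated libraries lay below all 3 NonIR libraries. Of the 14727 tested genes, which do not include Fancd2, 0.903% lay below in the same way. A fit without the filter, over 28532 genes, gave Fancd2 log2 fold changes of -1.42 (SE 0.52, edgeR adjusted p = 0.642) in PreIR-GFP against NonIR and -1.36 (SE 0.52, edgeR adjusted p = 0.820) in PreIR-NTN against NonIR. Fancf, a core subunit with a single exon, had 5, 6, 2, 5 and 7 reads in PreIR-NTN 1 to 5, 12, 4, 3, 4 and 13 in PreIR-GFP 1 to 5, and 1, 1 and 4 in NonIR 1 to 3. Rad51b had 1, 0, 3, 9 and 3 reads in PreIR-NTN 1 to 5, 6, 0, 4, 2 and 4 in PreIR-GFP 1 to 5, and 0, 5 and 0 in NonIR 1 to 3. A count of 0 allows up to 3 reads in a library, and with 69, 67 and 37 reads over all libraries these genes could not be followed at this depth. Fancd2 was singled out after its values were seen.

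Members that work as partners kept different distances in reads per kb. Xrcc6 exceeded its Ku partner Xrcc5 in all 13 libraries, by 3.66 to 5.03 times in PreIR-NTN, 3.63 to 4.53 times in PreIR-GFP and 3.88 to 4.26 times in NonIR. Parp2 exceeded Parp1 by 2.97 to 5.41 times in PreIR-NTN, 3.23 to 6.77 times in PreIR-GFP and 3.48 to 5.30 times in NonIR. Ercc6 over Ercc8, partners in transcription-coupled repair, was 3.2 to 8.97 in PreIR-NTN, 5.13 to 8.97 in PreIR-GFP and 3.26 to 9.71 in NonIR. Brca2 over Brca1 was 3.27 to 12.5 in PreIR-NTN, 8.53 to 19.8 in PreIR-GFP and 12.6 to 19.7 in NonIR, on 76 Brca1 reads in all. Rad54b over Rad54l was 0.54 to 1.47 in PreIR-NTN, 0.46 to 1.39 in PreIR-GFP and 0.25 to 0.44 in NonIR, with no irradiated library inside the NonIR range. This ratio rests on 5 to 8 Rad54b reads in a NonIR library and is not separate from the Rad54b values above. These ratios depend on the annotated exon length, which counts all isoforms, and are given without a test.

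**Figure D4:**
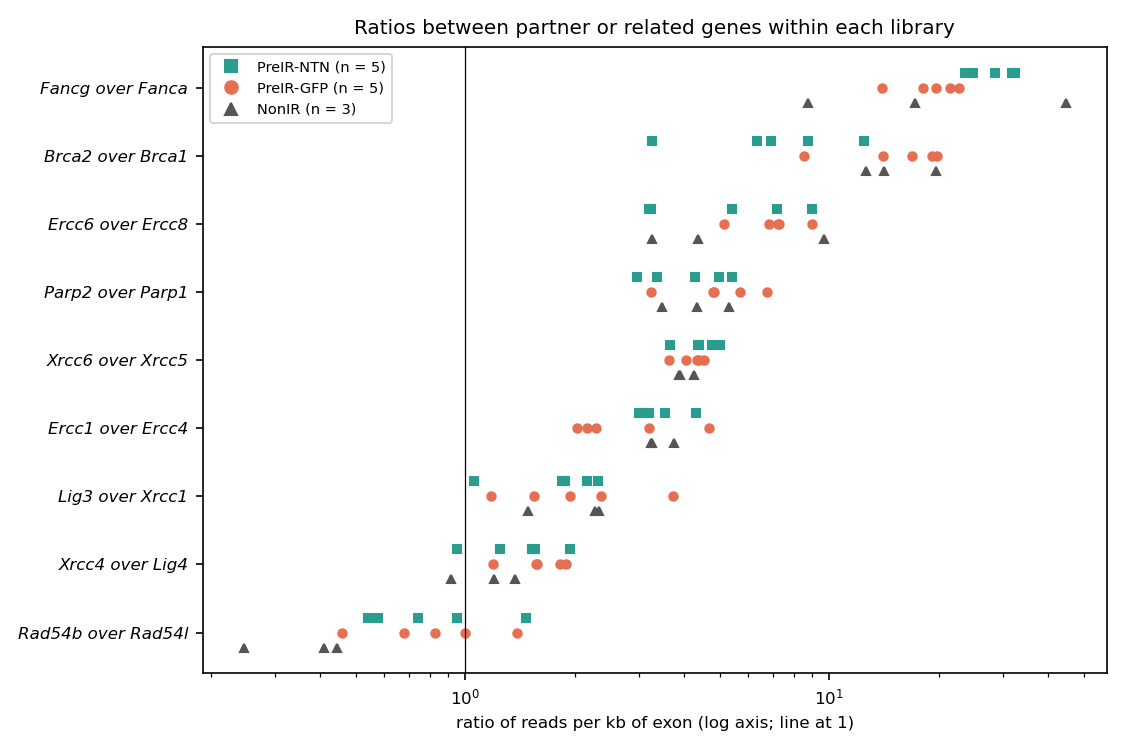
Ratio of reads per kb of exon between partner or related genes (rows) in each library, on a log axis with a line at 1; squares are PreIR-NTN, circles PreIR-GFP and triangles NonIR. Xrcc6 over Xrcc5 stays between 3.63 and 5.03 in all 13 libraries, while Brca2 over Brca1 runs from 3.27 to 19.8.

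Promoter sequences from RefSeq (GRCm38.p6, 250 bases before to 50 after each start) were found for 37 of the 47 members, in 44 windows. E2F-type letters, TTTCCCGC or TTTGGCGC on either strand, are the kind bound by factors that drive genes of DNA replication. They were present in 7 windows of the members (15.9%) and in 1.56% of all 32851 windows. The letters TTTGAA, a CHR-type element of late cell cycle genes, were in 2 windows (4.55%), against 17.9% of all windows, and CCAAT was in 24 windows (54.5%), against 37.4%. GCGGGAAA is TTTCCCGC read on the other strand, and none of the 3 motifs contains another. A match is a description of letters and not a site. The 7 matches are shown with 11 bases on each side, because they fall on genes of several pathways; capitals mark the E2F-type letters, and each line runs 5′ to 3′ on the gene's strand.
Brca2: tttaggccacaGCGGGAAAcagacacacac
Fancg: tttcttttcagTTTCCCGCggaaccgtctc
Msh3: ttgccgtcaagTTTGGCGCgaaatcgcagc
Msh5: tgacggaaaagGCGGGAAAgtgctgcgaat
Msh6: ctcctcccgacTTTCCCGCcagcggcggcc
Rad51c: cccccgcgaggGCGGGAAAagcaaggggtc
Xrcc6: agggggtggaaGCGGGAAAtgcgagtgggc

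On GRCm38 these stretches lie as follows: Brca2 at chr5:150522442-150522471 on the plus strand, Fancg at chr4:43010335-43010364 on the minus strand, Msh3 at chr13:92355187-92355216 on the minus strand. Further ones are Msh5 at chr17:35046669-35046698 on the minus strand, Msh6 at chr17:87975054-87975083 on the plus strand, Rad51c at chr11:87404941-87404970 on the minus strand and Xrcc6 at chr15:82016312-82016341 on the plus strand. The match of Msh6 begins 15 bases after the RefSeq start, and the other 6 begin before it, nearest for Rad51c at 5 bases and farthest for Msh3 at 202 bases.

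The stretches before the starts of Fancg and Lig4 are shown because these members stood highest and lowest against NonIR among those with over 5 CPM. Both are the 150 bases before the RefSeq start on the minus strand of GRCm38, Fancg at chr4:43010302-43010451 and Lig4 at chr8:9977681-9977830. Capitals mark the E2F-type letters, which are absent from the Lig4 stretch. Most member windows lack these letters, which were in 15.9% of them, and a link to the fold changes was not tested.
Fancg: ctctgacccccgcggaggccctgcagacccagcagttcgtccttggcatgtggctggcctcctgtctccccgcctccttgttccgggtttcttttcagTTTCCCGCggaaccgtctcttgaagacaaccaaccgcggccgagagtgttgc
Lig4: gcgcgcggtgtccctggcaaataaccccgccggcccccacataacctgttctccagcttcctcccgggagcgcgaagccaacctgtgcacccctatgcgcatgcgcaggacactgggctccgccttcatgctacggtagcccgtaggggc

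Other genes of the same pathways were not called either. A list of 108 repair genes without these names, chosen by pathway, had 102 tested genes and 0 calls in each comparison by the edgeR test. At an unadjusted p under 0.05 stood 1 in PreIR-NTN against PreIR-GFP, 7 in PreIR-GFP against NonIR and 6 in PreIR-NTN against NonIR. The shares of all genes at that p were 6.08%, 8.78% and 7.97% in the same order. The median log2 fold changes were -0.01, -0.02 and -0.04, beside -0.01, 0.02 and 0.00 over all genes. Topbp1, which activates the Atr checkpoint kinase, had the lowest p in PreIR-NTN against PreIR-GFP, at 0.49 (edgeR adjusted p = 0.411), and in PreIR-NTN against NonIR, at 0.73 (edgeR adjusted p = 0.243). Rpa1, which coats single strands, had it in PreIR-GFP against NonIR, at -0.44 (edgeR adjusted p = 0.403).

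Since many repair genes are made in dividing cells, each member was also set against a cell cycle list of 28 genes that holds none of them. The score of a library was the mean centred log2 CPM of the 27 tested list genes. It ran from 0.20 to 0.70 in PreIR-NTN, from -0.82 to 0.28 in PreIR-GFP and from -0.63 to 0.43 in NonIR. In PreIR-NTN against PreIR-GFP, 25 of the 27 list genes had positive values at a median of 0.60, and edgeR called 0 of them, with 9 at an unadjusted p under 0.05. In that comparison 47.3% of all genes were positive and 6.08% stood at an unadjusted p under 0.05. Within groups, the slope on this score, in log2 units per unit of score, called 0 of the 44 members and 0% of 14700 genes outside the list. It also called 0 of the 27 list genes that make the score, with 18 at an unadjusted p under 0.05. Their lowest edgeR adjusted p was 0.060, for Cdk1. The absence of calls therefore cannot decide whether members follow the score. At an unadjusted p under 0.05 stood 5 members (11.4%), with 9.58% of all genes, 1408 in number. Without PreIR-GFP 1 these were 3 members and 652 genes, without NonIR 2 they were 2 members and 1168 genes, and without NonIR 3 they were 3 members and 1485 genes.

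The members with the lowest p lay in both directions. Mlh3, a mismatch repair protein, had 8.17, 8.68, 7.17, 7.18 and 7.46 CPM in PreIR-NTN 1 to 5, 11.8, 8.84, 6.57, 7.08 and 7.19 in PreIR-GFP 1 to 5, and 6.64, 11.6 and 7.84 in NonIR 1 to 3, and a slope of 0.58 (SE 0.20, edgeR adjusted p = 0.465). PreIR-GFP 1 and NonIR 2, which had the highest scores of their groups, were also its highest libraries. Fancb, a core subunit on the X chromosome, had 2.51, 4.22, 4.89, 3.92 and 4.68 CPM in PreIR-NTN 1 to 5, 5.22, 2.9, 2.81, 4.18 and 4.28 in PreIR-GFP 1 to 5, and 3.97, 6.16 and 4.17 in NonIR 1 to 3, and a slope of 0.68 (SE 0.26, edgeR adjusted p = 0.468). Rad54b followed at 0.87 (SE 0.40, edgeR adjusted p = 0.514), and at 0.49 with limma on the deposited values. With negative slopes stood Ercc8, the partner of Ercc6 in transcription-coupled repair, at -0.77 (SE 0.30, edgeR adjusted p = 0.47), on 2.51, 4.34, 3.58, 4.42 and 2.62 CPM in PreIR-NTN 1 to 5, 2.47, 3.37, 4.14, 4.38 and 2.67 in PreIR-GFP 1 to 5, and 4.65, 2.28 and 4.17 in NonIR 1 to 3. Fance, which binds Fancd2, was at -0.63 (SE 0.24, edgeR adjusted p = 0.47), on 9.46, 7.1, 8.55, 10.0 and 7.77 CPM in PreIR-NTN 1 to 5, 5.15, 11, 11.8, 8.7 and 6.66 in PreIR-GFP 1 to 5, and 5.95, 6.67 and 9.15 in NonIR 1 to 3. Xrcc1 was at -0.46 (SE 0.23, edgeR adjusted p = 0.544). Without PreIR-GFP 1 the slopes of Fance and Xrcc1 were -0.36 and -0.17.

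Brca1 had a slope of 0.69 with a wide interval (95% interval -0.92 to 2.29), on few reads. Among members with a mean of at least 5 CPM, Brca2 (0.00, 95% interval -0.61 to 0.61), Lig4 (-0.02) and Rad52, an annealing protein (-0.03), lay nearest 0. Rad52 had 9.61, 10.2, 9.86, 10.4 and 8.09 CPM in PreIR-NTN 1 to 5, 11.1, 11.3, 9.85, 7.75 and 10.5 in PreIR-GFP 1 to 5, and 11.1, 8.19 and 7.52 in NonIR 1 to 3. Of the 7 nucleotide excision repair members, 6 had negative slopes, at a median of -0.24. Negative values were common over all genes, of which 45.7% were positive, and 20 of the 44 members (45.5%) were positive.

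**Figure D5:**
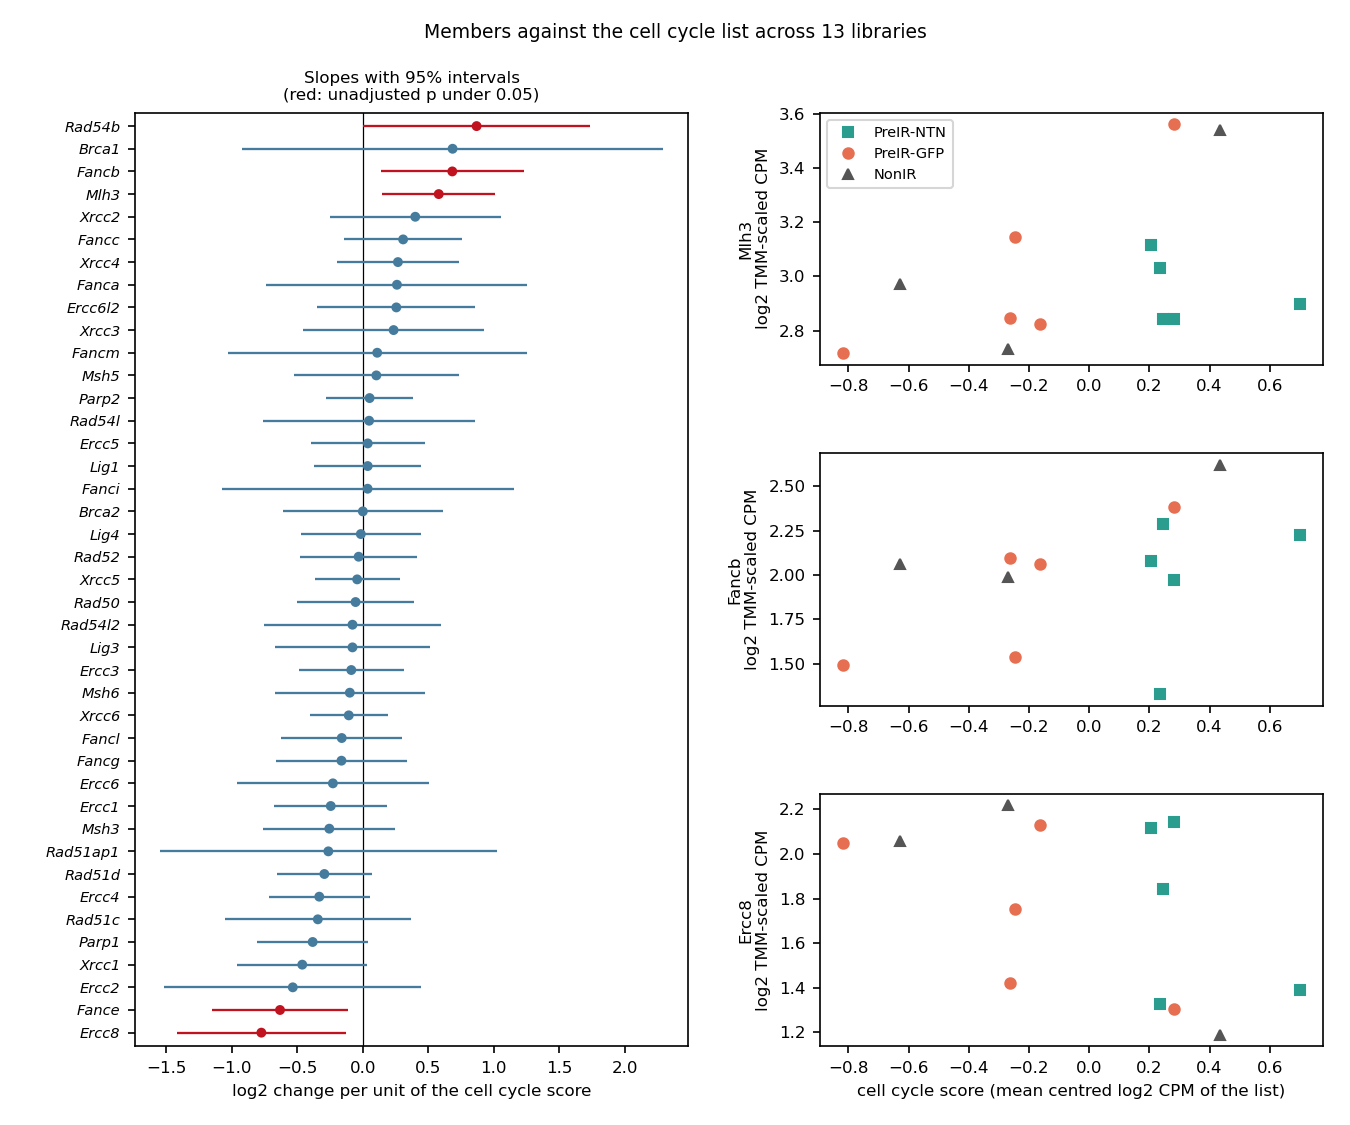
Left, slope of 41 of the 44 tested members on the cell cycle score (x axis, log2 change per unit of score) with 95% intervals, red for an unadjusted p under 0.05; right, log2 TMM-scaled CPM of Mlh3, Fancb and Ercc8 against the score in each library. The intervals of 36 plotted members cover 0, and Mlh3 is highest in PreIR-GFP 1 and NonIR 2.

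Markers of duct cells and some other cell types differed between some of the groups beside these values. Duct markers, all 12 detected, summed to 18171 to 24152 CPM in PreIR-NTN, 12280 to 28758 in PreIR-GFP and 24346 to 28696 CPM in NonIR. All 5 PreIR-NTN libraries thus lay below all 3 NonIR libraries in this sum. The sums for T and NK, B and plasma, endothelial, and basal and myoepithelial cells overlapped between all groups. Macrophage markers, all 8 detected, summed to 62.3 to 82.3 CPM in PreIR-NTN, 95.9 to 178 CPM in PreIR-GFP and 84.6 to 96 CPM in NonIR. Fibroblast markers, all 7 detected, summed to 149.6 to 199.9 CPM in PreIR-NTN, 244 to 390 CPM in PreIR-GFP and 237 to 284 CPM in NonIR. Neuron and glia markers, all 9 detected, summed to 45.6 to 59.4 CPM in PreIR-NTN, 44.1 to 60.4 CPM in PreIR-GFP and 30.8 to 44.9 CPM in NonIR. No gene of these lists was at 0 in all libraries. Their part in the members' values was not tested.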

How the data were processed

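RNA of whole submandibular glands was measured in 13 libraries. Per the labels' protocols, cDNA came from the SMART-Seq v4 kit and libraries from Nextera XT, read on a NextSeq. The submitters' processing notes name STAR 2.5.2a as aligner, GRCm38.p3 (mm10) as build, and the packages DESeq2, edgeR and limma; no counting tool is named there. Instruments and aligners in the series text differ from these, and those of the samples were taken. The authors deposited raw counts for 48709 genes and 24 other entries, which were left out and held at most 0.0001% of reads. A second deposited table holds signal values, which were found to equal the counts times 1 constant per library (TMM-scaled CPM).

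From the counts, genes were kept by filterByExpr (14727), scaled by TMM and fitted with edgeR 4.0.16 (quasi-likelihood, robust, R 4.3.3) over all 13 libraries with 1 mean per group. Tests are two-sided with a threshold of 0.05 after Benjamini-Hochberg adjustment over all genes. Standard errors were derived from the F statistic, and intervals are at 95%. Spreads on the log2 scale use log2(CPM + 0.1). The cell cycle slope adds 1 continuous term. Exon lengths and overlaps came from GENCODE release M21. The fit was tested on simulated data. These intervals include the spread between libraries. The floor for a count of 0 covers counting error only, since PCR reads without molecular identifiers are not independent molecules.

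The members and lists were chosen with earlier results of these data known. Members given in full are, in each group comparison, the 4 with the lowest p (none passed); for the slope, the 6 with the lowest p and the 3 nearest 0; and the highest member of each of the 9 name families. Some members are not reported here and are left out of the plots; counts cover all members unless a caption gives fewer. Alternatives were DESeq2 1.42.0, limma 3.58.1 (voom, or on log2 of the deposited signal + 0.5), other scaling and filters, only the groups compared, the replicate number as a block, the cell cycle score as a covariate and leaving out libraries.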

Additional observations from a re-analysis of the deposited data

Results flagged for a closer look

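Among 21 named members, 42 groups of 5 libraries were looked at, and in 3 of them a single library lay far from the other 4; chance gives about 1 in 20. Rad54b stood at 2.54 CPM in PreIR-NTN 5, against 1.08 to 1.47 CPM in the other PreIR-NTN libraries, and its log2 fold change in PreIR-NTN against NonIR was 1.46 without that library. Ercc1 stood at 12 CPM in PreIR-NTN 5, against 10.7 to 10.9 CPM in the others of that group. Xrcc6 stood at 67.4 CPM in PreIR-GFP 1, against 74.6 to 77.1 CPM in the others of that group.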

How the results depend on the processing

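No member passed under any of the 23 alternatives. The number of all genes called moved more. In PreIR-NTN against PreIR-GFP (3) it was 38 with DESeq2, 10 with no low count filter, 6 with the cell cycle covariate, 1 without PreIR-GFP 1 and 2, 0 with only the groups compared (815 genes at an unadjusted p under 0.05) and 0 to 11 when leaving out single libraries. In PreIR-GFP against NonIR (5) it was 73 with DESeq2, 20 with no filter, 9 with limma on the deposited values, 1 without PreIR-GFP 1 and 2, 0 with limma-voom (1126 genes at an unadjusted p under 0.05) and 0 with only the groups compared (1007), and 0 to 17 when leaving out single libraries, with 17 without PreIR-GFP 1. In PreIR-NTN against NonIR (3) it was 31 with DESeq2, 5 without PreIR-GFP 1 and 2, 1 with limma-voom, 0 with the covariate (1237 genes at an unadjusted p under 0.05) and 0 to 4 when leaving out single libraries. The slope (0) gave 17 with DESeq2 and 4 with no filter. The members' median log2 fold change ranged from 0.0605 to 0.20 in PreIR-GFP against NonIR and from 0.014 to 0.13 in PreIR-NTN against NonIR when leaving out single libraries, both highest without NonIR 1, and was 0.10 with the covariate in PreIR-NTN against NonIR. In PreIR-NTN against PreIR-GFP it lay between -0.04 and 0.05 in every setting. Slopes nearest 0 changed sign: Brca2 was -0.0087 with no filter and -0.13 to 0.092 when leaving out single libraries. Lig4 was 0.025 with DESeq2 size factors, 0.019 with DESeq2 and -0.17 to 0.12 when leaving out single libraries, and Rad52 was 0.0060, 0.0063 and -0.19 to 0.076 in the same settings. With the replicate number as a block, edgeR called 0 genes in PreIR-NTN against PreIR-GFP (691 at an unadjusted p under 0.05), 0 in PreIR-GFP against NonIR (1084) and 0 in PreIR-NTN against NonIR (879), the Brca2 slope was -0.090 and the Rad54b slope 0.55. Deviations of same-numbered libraries correlated at -0.43 to 0.28. Differently numbered libraries were not correlated for reference, so these values cannot decide whether the numbers pair libraries. The causes were not tested. Depth limits members with few reads, such as Brca1, Fancd2, Fancf and Rad51b.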
